A study of Xenopus laevis with 4 samples.

Results

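camk2g.S encodes the gamma subunit of calcium/calmodulin-dependent kinase II on the short subgenome of the allotetraploid frog Xenopus laevis, and 23 of the 15491 non-control probe sets of the array carry it as their single gene symbol. The members were chosen by that symbol, because many of them had shown higher signals in the vegetal cortex, so the cortex values of camk2g.S are given here as a description without a test. Vegetal cortex was peeled by hand from collagenase-treated, full-grown stage VI oocytes and frozen in batches of 10 cortices, with 2 arrays (replicates 1 and 2). Whole stage VI oocytes of the same female, also collagenase-treated, served as the control, with 2 arrays (replicates 1 and 2). Each replicate number stands for a different female, no genotype or drug separated the groups, and 100 ng of total RNA per sample was amplified and hybridised. The same-numbered arrays are called the first pair and the second pair below.

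CaMKII is a multi-subunit serine/threonine kinase that calcium-bound calmodulin switches on. Several genes encode its subunits, and alternative splicing gives each gene many protein forms. In Xenopus eggs the calcium wave of fertilization activates the kinase, which marks the protein Emi2 (gene fbxo43) for destruction and so lets the egg leave its arrest at metaphase of meiosis II. The vegetal cortex is the outer layer of the oocyte on its vegetal side, where maternal RNAs of the germ line and of axis formation are anchored.

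All values are MAS5 signals on a linear scale, in which each array was scaled to the same trimmed mean (between 1500.1 and 1500.2). A change is therefore relative to the other RNAs of a sample. More camk2g.S RNA in a cortex and less of the other RNAs there cannot be told apart. Only arrays, and no counts, stand behind the values, so their number (2 a group) limits the precision. The label of the cortex was read against listed genes. Of 19 tested genes listed for germ plasm and vegetal cortex, 18 rose and 0 fell in the cortex by limma, among them nanos1.L (log2 change 4.06) and gdf1.S (2.00). Of all 9295 tested probe sets, 3.31% were called higher. The list was chosen with earlier results of these data known, so its count is not an independent check. Genes from lists of markers of other cells were also read. Whether their RNA came from such cells or from the oocyte itself was not tested. The 17 listed follicle and stromal genes stood for 10 symbols on the array, whose signals summed to 55441 and 51995 in cortices against 32597 and 32389 in whole oocytes. Only 3 of them were bright enough to test, and 1 rose, cyp17a1.L (log2 change 2.13). It had signals of 28863 and 16553 in vegetal cortex, against 4187 and 5881 in whole oocytes. The others, fn1.S and vim.L, did not pass, with log2 changes of 0.15 and 0.05. The blood list summed to 508 and 583 in cortices against 535 and 375 in whole oocytes, and the list of yolk precursor and liver genes to 356 and 530 against 420 and 400 there, with no tested member in either. No listed marker was at exactly 0, and the part of such cells in the camk2g.S signal was not tested.

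All 23 probe sets share 1 name stem, and no other probe set of the array has it; the names below give what follows the stem. They were designed from 18 distinct target records. The ending of a name describes how specific its probes are in the manufacturer's scheme: _at for probes of 1 transcript, _a_at for probes shared by transcripts of 1 gene, _s_at for probes shared by several transcripts, and _x_at for sets in which some probes may bind unrelated sequences. Of the 23 sets, 1 ended in _at, 6 in _a_at, 16 in _x_at and 0 in _s_at. A further letter in the name, S or A, stands for sense or antisense in the same scheme. There were 18 S sets and 5 A sets for camk2g.S. Probe sequences were not used, so the strand that the A sets read was not checked. Over the array, 7013 probe sets have S and 8478 have A. Among tested probe sets, no other symbol was covered as often. camk2g.S had 20, the next largest number was 7, and 4515 of 5231 symbols had 1. These sets carry the same gene symbol and were read in the same 4 RNA samples, so they are not replicates of each other. No probe set carried the symbol camk2g.L, so the signals of both homeologous copies cannot be told apart where probes bind both.

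Each of the probe sets with the symbol camk2g.S was brighter in the cortex, S and A sets alike. Both cortex signals exceeded both whole oocyte signals for all 23, and so for all 20 that were bright enough to test. Of all tested probe sets, 14.7% showed this separation. Since the gene was chosen by this contrast, nothing is read from the count. The set with the strictest ending, 1.S1_at, gave signals of 5110.2 and 2574 in vegetal cortex replicates 1 and 2, against 528 and 285 in whole oocyte replicates 1 and 2. Its log2 change was 3.16 ± 0.48 (limma SE, n = 2 arrays a group), an 8.94-fold difference: 3.23 within the first pair, 3.09 within the second. The 2 females thus gave nearly the same change from signals that differed 1.99-fold between the cortex arrays and 1.85-fold between the whole oocyte arrays.

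The brightest set, 2.S1_a_at, had signals of 29189.5 and 16755 in vegetal cortex, against 3022 and 1754 in whole oocytes. These put it at percentiles 99.7 and 98.9 of all non-control probe sets on the cortex arrays and at 81.3 and 69.9 on the whole oocyte arrays. Its log2 change was 3.25 ± 0.40 (9.53-fold), 3.26 within the first pair and 3.24 within the second, so the groups lay far apart and the pairs nearly coincided.

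Signals had to reach a mean of 271.5, the 40th percentile, for a set to be tested, and 20 of the 23 did. The dimmest set inside this limit was 5.A1_a_at, with a mean of 381, and the brightest set outside was 16.A1_x_at, with a mean of 268. The 3 sets outside were all A sets ending in _x_at. Of the 20 tested sets, 17 reached the limit by their whole oocyte mean alone, and 3 (7.S1_a_at, 16.A1_a_at and 5.A1_a_at) only together with their cortex signals. Of these 20, 17 were at least 4-fold higher in both pairs, beside 2.10% of all tested probe sets. The gene was chosen by this contrast, so nothing is read from that count.

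Size of the change differed among the probe sets. Over the 20 tested sets the median log2 change was 3.17, beside -0.20 for all tested probe sets, and the values ran from 2.25 to 3.78. The highest, 20.S1_x_at, had signals of 8862 and 2577 in vegetal cortex, against 527 and 204 in whole oocytes (log2 change 3.78 ± 0.65). The lowest, 16.A1_a_at, had 656 and 854 in vegetal cortex, against 97.0 and 205 in whole oocytes (2.25 ± 0.51). Next to it stood an S set, 6.S1_a_at, with 3775 and 1032 in vegetal cortex, against 439 and 365 in whole oocytes (2.25 ± 0.59). The middle of the ranking fell between 1.S1_at and 18.S1_x_at, which had 8001 and 1397 in vegetal cortex, against 518 and 239.7 in whole oocytes (3.18 ± 0.76). The SE of a single set was 0.40 to 0.76. It rests on variation among the arrays of a group, which the sets share, drawn toward the trend over all tested probe sets. Females were not paired in it, so it counts differences in level between them and is not the spread of the change between pairs. The error of a difference between sets was not computed. The order of the sets was therefore not tested. Across the 20 sets the log2 change went with the mean signal of the 4 arrays (Spearman 0.69) and less so with the whole oocyte signal (0.22). Over the 18 S sets alone, these values were 0.60 and -0.03. The points share arrays and RNA, the cortex signal enters both measures of the first relation, and the offset pulls dim sets toward 0.

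By ending, the single _at set stood at 3.16, the 6 _a_at sets had a median of 2.46 (2.25 to 3.70) and the 13 tested _x_at sets a median of 3.33 (2.30 to 3.78). The _a_at and _x_at ranges overlapped almost fully. All 13 of these _x_at sets were S sets, while 2 of the 6 _a_at sets were A sets. The median was 2.90 over the 4 S sets ending in _a_at, and 3.14 over all 16 _x_at sets, tested or not. By letter within an ending, the A values lay in the lower part of the S range or below it. Among _a_at sets, the 4 S sets had log2 changes of 2.25 to 3.70 and the 2 A sets 2.25 and 2.37. Among _x_at sets, the 13 S sets had 2.30 to 3.78 and the 3 A sets, which were too dim to test, 1.35 to 2.19. The median log2 change was 3.21 over the 18 S sets and 2.19 over the 5 A sets. All 5 A sets had whole oocyte means under the signal limit of 271.5. Since the gene was also chosen by this contrast, nothing is read from the split by letter.

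Where an S set and an A set were drawn from the same target record, they can be set beside each other. 23.S1_x_at had signals of 11541 and 3426 in vegetal cortex, against 792 and 469 in whole oocytes (log2 change 3.33). Its A partner 23.A1_x_at had 241 and 445 in vegetal cortex, against 89.2 and 77.8 in whole oocytes (1.76). The S partner was thus high on cortex array 1 and the A partner on cortex array 2. The same held for the sets numbered 16 and 17 of the same ending, with log2 changes of 3.38 (S) and 2.19 (A), and of 2.66 (S) and 1.35 (A). The sets numbered 5, 5.S1_a_at and 5.A1_a_at, come from different target records and had 3.70 and 2.37. In these 4 pairings the S set was the brighter one on every array. How bright a set is depends also on its probes. Elsewhere on the array, 229 names, read up to the letter, had both S and A sets. By mean signal of the 4 arrays, S was brighter in 102 of them (44.5%). Target records were not compared there. Sets of 1 target record that differ only in their ending were closer in profile: 5.S1_x_at gave 10626 and 2495 in vegetal cortex, against 839 and 404 in whole oocytes (3.10), and its _a_at partner 13774 and 3547, against 884 and 302 (3.70).

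The S sets differed between the females in one direction. Replicate 1 was brighter than replicate 2 in both groups for all 18 S sets. On the cortex arrays its excess was 1.74-fold to 5.73-fold (median 3.55) and on the whole oocyte arrays 1.20-fold to 3.59-fold (median 2.08). The share of all tested probe sets brighter in replicate 1 in both groups was not computed. Their median log2 of replicate 1 over replicate 2 was 0.03 in the cortex and 0.005 in whole oocytes. The 5 A sets ran against the S sets on the cortex arrays, where replicate 1 over replicate 2 was 0.541 to 0.955. On the whole oocyte arrays this ratio was 0.473 to 1.15 for the A sets, with replicate 1 the higher in 1 of them. At least a 2-fold excess of cortex replicate 1 over cortex replicate 2 was seen for 16 of the 20 tested sets, beside 11.2% of all tested probe sets and 12.9% of the 295 other probe sets called higher in the cortex. The 4 exceptions were both tested A sets, 1.S1_at and 2.S1_a_at.

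The difference between the females was not used in choosing the gene, and it was tested by limma with the group in the model. Replicate 1 over replicate 2 had log2 values of 0.79 to 1.78 for the 18 S sets, and of -0.66 and -0.22 for the 2 tested A sets. None of the 20 passed: the adjusted p ran from 0.343 to 0.812 by limma, and 0 of 9295 probe sets passed over the array. At an unadjusted p under 0.05, 17 of the 20 were higher in replicate 1, all of them S sets, beside 8.05% of all tested probe sets. Of the S sets, 6.S1_a_at was the exception. With 1 residual degree of freedom this test has little reach, and the 17 sets read the same RNA. A female's oocytes, her hybridisation and her array cannot be told apart here.

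The change of vegetal cortex over whole oocyte also differed between the pairs. With the offset used here it was larger in the first pair for all 20 tested sets, beside 49.1% of all tested probe sets. It was so for 19 of the 20 with no offset, where 7.S1_a_at turned, and for 19 after quantile normalization, where 2.S1_a_at turned. By at least 0.5 on the log2 scale it was larger for 11 of the 20, beside 23.5% of all tested probe sets. The median gap was 0.66 for the 20 sets and -0.01 for all tested probe sets. For the 295 other probe sets called higher in the cortex it was 0.50, so a gap in this direction was also seen outside camk2g.S. For the 13 tested _x_at sets the medians were 3.73 for the first and 2.82 for the second. The widest gap belonged to 6.S1_a_at, at 3.05 (first pair) and 1.45 (second pair). 9.S1_x_at, with 9899 and 2244 in vegetal cortex against 774 and 511 in whole oocytes, had 3.65 and 2.09. The smallest gaps were 0.02 for 2.S1_a_at, 0.12 for 7.S1_a_at and 0.14 for 1.S1_at. Among the 3 untested A sets the second pair had the larger change, although for 17.A1_x_at the signals with no offset gave 2.79-fold for the first pair and 2.78-fold for the second. Left without cortex replicate 1, the median log2 change of the tested sets was 2.42, and without cortex replicate 2 it was 4.04.

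The other CaMKII subunit genes on the array did not pass the test or were dim. camk2d.S, which encodes the delta subunit, was the only other subunit gene bright enough to test, through 1 of its 3 probe sets. The bright set, ending in S2_at, had signals of 1417 and 716 in vegetal cortex, against 1086 and 2210.3 in whole oocytes. The groups overlapped, and the log2 change was -0.61 ± 0.50 (adjusted p = 0.621 by limma), 0.38 within the first pair and -1.60 within the second. The other 2 camk2d.S sets were dim, at 121 and 47.4 in vegetal cortex against 155 and 119 in whole oocytes for the one ending in S1_at, and at 137 and 20.0 against 183 and 160.3 for the one ending in S1_s_at. camk2b.L, a beta subunit gene, had signals of 81.2 and 76.7 in vegetal cortex, against 90.2 and 125 in whole oocytes. camk2a.S, an alpha subunit gene, had 21.4 and 6.80 in vegetal cortex, against 11.4 and 64.6 in whole oocytes. Each of these 5 sets had a lower mean signal in the cortex, with log2 changes of -1.28 to -0.36, and the 4 dim ones were not tested. The median of all tested probe sets was itself below 0, at -0.20. Within the first pair the bright camk2d.S set (0.38) and camk2a.S (0.41) were higher in the cortex, and the others lower. Within the second pair all were lower. A sixth set, which carries both camk2a.S and camk2b.L, was not used. Because camk2g.S was chosen by its cortex change, its difference from camk2d.S was not tested.

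Genes that act around the kinase were read from 5 lists, in which 3 tested genes rose and 0 fell by limma, beside 3.31% and 0% of all tested probe sets. A gene stands here by its brightest tested probe set. From the list for calmodulin, its other kinases and striatins, 7 genes were tested: camk1.S, camkk1.S, dapk2.L, dapk3.S, phkg2.L, strn.S and strn3.L. No calmodulin gene was among them, so calmodulin RNA itself was not tested. Of the 7, 0 rose and 0 fell by limma, and their median log2 change was -0.32. At an unadjusted p under 0.05, 0 of these 7 were higher and 2 lower, beside 8.02% and 4.62% of all tested probe sets. The brightest were dapk3.S, a death-associated protein kinase gene (-0.78 ± 0.33, adjusted p = 0.392 by limma), and strn3.L, which encodes a striatin that binds calmodulin (-0.09 ± 0.39, adjusted p = 0.934 by limma). Of 6 tested genes for the phosphatase calcineurin, its partners and its NFAT targets, 0 rose and 0 fell by limma, with a median of 0.19 and, by p before adjustment, 1 higher and 0 lower. The catalytic subunit gene ppp3cc.L had signals of 7874 and 12067 in vegetal cortex, against 3486 and 5542 in whole oocytes (1.15 ± 0.37, adjusted p = 0.234 by limma). It was higher in the cortex in both pairs, and passed as higher when vegetal cortex replicate 1 was left out (1.45). chp1.L, a calcineurin-like calcium-binding protein gene, had a log2 change of -0.62 ± 0.32.

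Among 17 tested genes for calcium release and calcium pumps, 1 rose and 0 fell, with a median of -0.02. The gene that rose was atp2a3.L, which encodes a pump that returns calcium to the endoplasmic reticulum. It had signals of 14323 and 15251 in vegetal cortex, against 1021 and 1819 in whole oocytes. The groups lay far apart, with a log2 change of 3.42 ± 0.38 (adjusted p = 0.00331 by limma), and the call held in all fits that left out 1 array. calr.L, the calcium-storing chaperone calreticulin of the endoplasmic reticulum, was level at 16848 and 14846 in vegetal cortex, against 17102 and 15023 in whole oocytes (-0.02 ± 0.27). plcb3.L, a phospholipase C gene, had a log2 change of -0.27 ± 0.28.

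Of 33 tested genes of metaphase arrest and egg activation, 1 rose and 0 fell, and the median was -0.22. The riser was btrc.S, which encodes beta-TrCP, the ubiquitin ligase subunit that recognises Emi2 in Xenopus eggs. Its signals were 10999.8 and 13696 in vegetal cortex, against 3829 and 2308 in whole oocytes (log2 change 2.04 ± 0.36, adjusted p = 0.0199 by limma). The call was lost without whole oocyte replicate 1 (2.40) or without whole oocyte replicate 2 (1.68). The B-type cyclin genes ccnb1.S and ccnb2.L, the brightest of the list, stood at 0.05 ± 0.23 and -0.02 ± 0.27. fbxo43.L, the gene of Emi2 itself, is named here after its values were seen. It had signals of 12170.0 and 9372 in vegetal cortex, against 13016 and 10754 in whole oocytes, and did not pass (-0.15 ± 0.30, adjusted p = 0.858 by limma).

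Of 18 tested genes of Wnt/calcium signalling, 1 rose and 0 fell, with a median of -0.10. This was wnt11b.L, a maternal Wnt ligand of the vegetal pole, with signals of 56155 and 26019 in vegetal cortex, against 4995 and 3657 in whole oocytes (3.16 ± 0.40, adjusted p = 0.00478 by limma). Like the 18 S sets of camk2g.S, and unlike the 5 A sets, it was higher on the array of cortex replicate 1 than on that of cortex replicate 2. The log2 of replicate 1 over replicate 2 in the cortex was 1.11 for wnt11b.L. It was -0.09 for atp2a3.L and -0.32 for btrc.S, the other called genes of these lists. Its median was 0.25 over the 295 probe sets called higher other than camk2g.S, and 0.03 over all tested probe sets. The G protein gene gna11.S and the small GTPase gene rhoa.L, the brightest of the others, had log2 changes of -0.08 ± 0.36 and 0.15 ± 0.34.

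The genes whose profile over the 4 arrays lay nearest to that of camk2g.S were found by Euclidean distance between log2 signals, each centred on its own mean. The median profile of the 20 tested camk2g.S sets was 2.51 and 0.81 on cortex replicates 1 and 2, and -1.14 and -2.05 on whole oocyte replicates 1 and 2. The tested camk2g.S sets themselves lay 0.16 to 2.21 from it (median 0.57), and all tested probe sets at a median of 3.79. The 8 nearest genes were elovl1.S (distance 0.44), a fatty acid elongase gene, midn.S (0.46), wnt11b.L (0.54), zfp36l2.S (0.58), which encodes a protein that binds AU-rich elements of mRNA, smad7.L (0.65), an inhibitory Smad, mfge8.S (0.77), pkp3.L (0.79), a plakophilin of desmosomes, and acsbg2.L (0.80), an acyl-CoA synthetase gene. elovl1.S had signals of 19961 and 6278 in vegetal cortex, against 1564 and 1192 in whole oocytes. All 8 were higher on cortex replicate 1 than on cortex replicate 2, by 1.74-fold to 3.18-fold, and had log2 changes of 2.49 to 3.58. With 4 arrays such likeness is a description of these samples, since the genes were picked for it.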

How the data were processed

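RNA of vegetal cortices and of whole stage VI Xenopus laevis oocytes was measured on 1-colour Affymetrix arrays, 2 per group. The deposited values are intensity values per probe set, which the authors computed by MAS5 according to the submitters' processing notes; its version was not given in the sources used here. Per the labels' protocols, RNA was amplified in a two-cycle cDNA synthesis, which favours 3' ends. Gene symbols came from the platform annotation, updated through gene identifiers of the Xenopus_laevis_v10.1 gene table: 9304 probe sets had 1 symbol (9227 matched, 2 updated), 195 several and 5992 none. Probe sequences and a genome were not used here.

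Here 120 control sets were left out, an offset of 19.11 (10th percentile) was added before log2, and the 9295 sets whose mean signal reached 271.5 (40th percentile) were tested by limma 3.58.1 in R 4.3.3 (lmFit, eBayes with intensity trend, two-sided, Benjamini-Hochberg, threshold 0.05, 2 residual and 6.22 prior degrees of freedom), which gave all p-values. The fit without a block was used for vegetal cortex over whole oocyte. Same-numbered arrays come from the same female, per the labels' protocols and the series design, and their deviations from the group means correlated at 0.35 across probe sets. The title of vegetal cortex replicate 2 was followed, although its description repeats the replicate number of the other. The code of the fit was run on simulated data with independent noise of constant size and no pairing by female. That run checks the code, not the error rates on these arrays.

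The members and lists were chosen with earlier results of these data known. Named are the camk2g.S sets with the highest, lowest and median change, the brightest and dimmest tested set, every _at set, all other camk2 sets, up to 6 called genes and the 2 brightest others of each list, and the 8 genes of nearest profile; further camk2g.S sets illustrate target records and pairs. Alternatives were the offset, the signal limit (none, 60th percentile), quantile normalization, no trend, the replicate block and leaving out each array. No probe set was tested for presence, so a dim signal is not called absent.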

Additional observations from a re-analysis of the deposited data

How the results depend on the processing

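The median log2 change of the tested camk2g.S sets was 3.17, and it was 2.98 to 3.25 under the alternatives of offset, signal limit, normalization, trend and replicate block. Leaving out 1 array gave 2.42 (without vegetal cortex replicate 1) to 4.04 (without vegetal cortex replicate 2), and likewise 2.67 to 3.65 for the _at set, 2.42 to 3.31 for the _a_at sets, 2.28 to 4.26 for the _x_at sets, 2.37 to 4.17 for the S sets and 1.98 to 2.64 for the tested A sets. With the offset at the 25th percentile the _at set stood at 2.98 and the A sets at 1.91. The signal limit at the 60th percentile left 3 of the 6 _a_at sets, whose median was 3.25. That shift came from which sets were kept, since the limit does not alter the log2 change of a set. All probe sets called higher numbered 308, and 125 to 697 with 1 array left out (125 and 140 without whole oocyte replicates 1 and 2, 697 and 666 without vegetal cortex replicates 1 and 2). Those called lower numbered 0, and 0 to 673 with 1 array left out (673 without vegetal cortex replicate 1), and 1 after quantile normalization. A fit with 1 array left in a group assumes that it varies like the arrays of the other group. With the replicate block, which pairs arrays by female, 355 were higher and 0 lower over the array, and no call changed among camk2d.S, the 5 calcium and egg activation lists with their named genes and the 8 genes of nearest profile; it was not run for the check and marker lists. In the lists, leaving out 1 array gave 0 to 1 lower for calmodulin and its kinases, 0 to 2 higher for calcineurin, 0 to 2 lower for calcium release, 0 to 1 higher and 0 to 2 lower for metaphase arrest, and 1 to 3 higher and 0 to 2 lower for Wnt/calcium. Small changes reversed: with 1 array left out, strn3.L ran from -0.45 to 0.26, ccnb1.S from -0.11 to 0.21, calr.L from -0.11 to 0.074, ccnb2.L from -0.20 to 0.16, gna11.S from -0.50 to 0.33, rhoa.L from -0.15 to 0.45 and fbxo43.L from -0.34 to 0.041. After quantile normalization strn3.L stood at 0.0084 and ccnb1.S at -0.62. The cause was not tested for any of these. Under the alternatives of offset, signal limit, normalization and trend, 0 camk2g.S sets differed between replicates 1 and 2 at an adjusted p under 0.05, the lowest being 0.248 to 0.362 by limma, with 15 to 18 sets at an unadjusted p under 0.05.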
